A study of Mus musculus with 6 samples.

Results

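Serum response factor (SRF) and 9 genes of the smooth muscle program were examined in isolated lung endothelial cells (iLECs) of mouse pups with and without endothelial *Atp6ap2*. The genes were chosen by symbol, as the transcription factor *Srf*, its coactivator *Myocd*, and the contractile and cytoskeletal genes *Acta2*, *Actg2*, *Tagln*, *Myh11*, *Cnn1*, *Myl9*, *Des* and *Lmod1*. All 10 were among the 24972 gene symbols of the table, and all 10 were among the 14456 genes expressed highly enough to be tested. RNA-Seq was performed on 6 libraries, 3 per genotype. Every pup was labelled *Atp6ap2* fl/Y on C57BL/6, received 100 µg of tamoxifen on each of postnatal days 1, 2 and 3, and was used on postnatal day 7; the study's methods describe a mixed CD1 and C57BL/6 background. Controls carried no Cre. *Atp6ap2* iECKO pups carried Cdh5-CreERT2, in which the endothelial *Cdh5* promoter drives a Cre recombinase that tamoxifen activates, so that Cre itself was present in only one of the genotypes. iLECs were captured from enzymatically digested lungs with magnetic beads coated with an antibody against the endothelial surface protein CD31.

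SRF is a DNA-binding factor that recognises the CArG box, a short element in which an A/T-rich core is flanked by CC and GG. Which genes it activates depends on its partners: with myocardin or the actin-sensing myocardin-related factors it drives contractile and cytoskeletal genes, and with the ternary complex factors of the ELK family it drives immediate early genes. In the developing lung the contractile genes mark vascular and airway smooth muscle. Some are also found in other cells, such as *Des* in pericytes and *Acta2* in alveolar myofibroblasts. The contractile genes are not defining genes of endothelium, whereas SRF is present in most cell types.

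CArG boxes were searched for in RefSeq promoter sequences (GRCm38.p6), which run from 250 bases before to 50 bases after a gene's start, and those found are printed here because they are the element through which SRF acts. The windows of *Srf*, *Acta2*, *Cnn1*, *Myl9*, *Des* and *Lmod1* were at hand; *Myocd*, *Actg2*, *Tagln* and *Myh11* were not in the set. The exact box is CC, then 6 letters that are A or T, then GG, and a relaxed form allows 1 of the 6 to be G or C. Both forms read the same way on either strand, so a single search covers both. Sequences run 5′ to 3′ on the gene's strand with 10 flanking bases, and the capitals mark the box.
*Srf*, chr17:46556205-46556254, minus strand, 2 exact boxes beginning 82 and 62 bases before the start: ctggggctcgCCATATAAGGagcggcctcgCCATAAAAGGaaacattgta
*Acta2*, chr19:34255438-34255467, minus strand, 1 relaxed box beginning 84 bases before the start: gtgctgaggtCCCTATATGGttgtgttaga
*Acta2*, chr19:34255388-34255417, minus strand, 1 relaxed box beginning 34 bases before the start: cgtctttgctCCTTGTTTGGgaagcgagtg
*Myl9*, chr2:156775293-156775322, plus strand, 1 exact box beginning 161 bases before the start: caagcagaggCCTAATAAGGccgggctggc
*Myl9*, chr2:156775355-156775384, plus strand, 1 relaxed box beginning 99 bases before the start: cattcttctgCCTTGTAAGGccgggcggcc
The exact box was present in 2 of these 6 windows and in 535 of all 32851 windows (1.63%). The relaxed or exact box was present in 3 of the 6, against 3280 of all windows (9.98%). *Srf* was among only 6 windows of the whole set (0.0183%) that held at least 2 exact boxes. The windows of *Cnn1*, *Des* and *Lmod1* held neither form within these 300 bases.

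Each value is an estimated count after the authors' normalization, called a normalized count below, with totals between 26243900 and 28725800 per library. Within each genotype, Pearson's r across genes was between 0.972 and 0.979. The most frequent low value, a proxy for what the smallest unit of reads is worth, was 2.26 to 2.34 in control libraries and 1.51 to 1.87 in *Atp6ap2* iECKO libraries, which places the latter at 1.25 to 1.55 times the depth of the shallowest library. *Atp6ap2* itself had 7490, 5815 and 5681 in control replicates 1 to 3 and 4220, 2336 and 1982 in *Atp6ap2* iECKO replicates 1 to 3, a log2 fold change of -1.22 (limma, Benjamini-Hochberg adjusted *P* = 0.0306). *Xist*, the RNA of the inactive X chromosome, was above 1000 in 4 of the 6 libraries, 2 per genotype, although all were labelled fl/Y. *Xist* was low in control replicate 3 and *Atp6ap2* iECKO replicate 2. Defining endothelial genes were high in all 6 libraries, which does not show how pure the cells were. *Pecam1*, which encodes CD31, was between 48730 and 57759, and *Cdh5* was between 76599 and 110813. In the paper's immunoblot of protein, VE-cadherin, the product of *Cdh5*, was detected only in iLECs. Smooth muscle α-actin and desmin were detected in the non-endothelial fraction. RNA of their genes, *Acta2* and *Des*, was present in all 6 libraries, as given below.

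The mean of every gene of the group was lower in *Atp6ap2* iECKO iLECs, and 5 of the 10 fell by the test. The log2 fold change was below 0 for 10 of 10 genes, with a median of -1.34 against 0.00 for all genes tested. *Srf*, *Tagln*, *Myh11*, *Myl9* and *Des* fell past the threshold of an adjusted *P* value of 0.05 in limma across all genes tested, and 0 of the 10 genes rose. That is 5 of 10 called lower, where 4.97% of all genes tested were called lower and 3.28% higher. Without adjustment, 8 of 10 had a *P* value below 0.05, against 23.9% of all genes tested. For 8 of 10 genes, every *Atp6ap2* iECKO library was below every control library, which was the case for 15.0% of all genes tested. In a bulk sample, fewer cells of a type and less RNA per cell cannot be told apart.

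**Figure D1:**
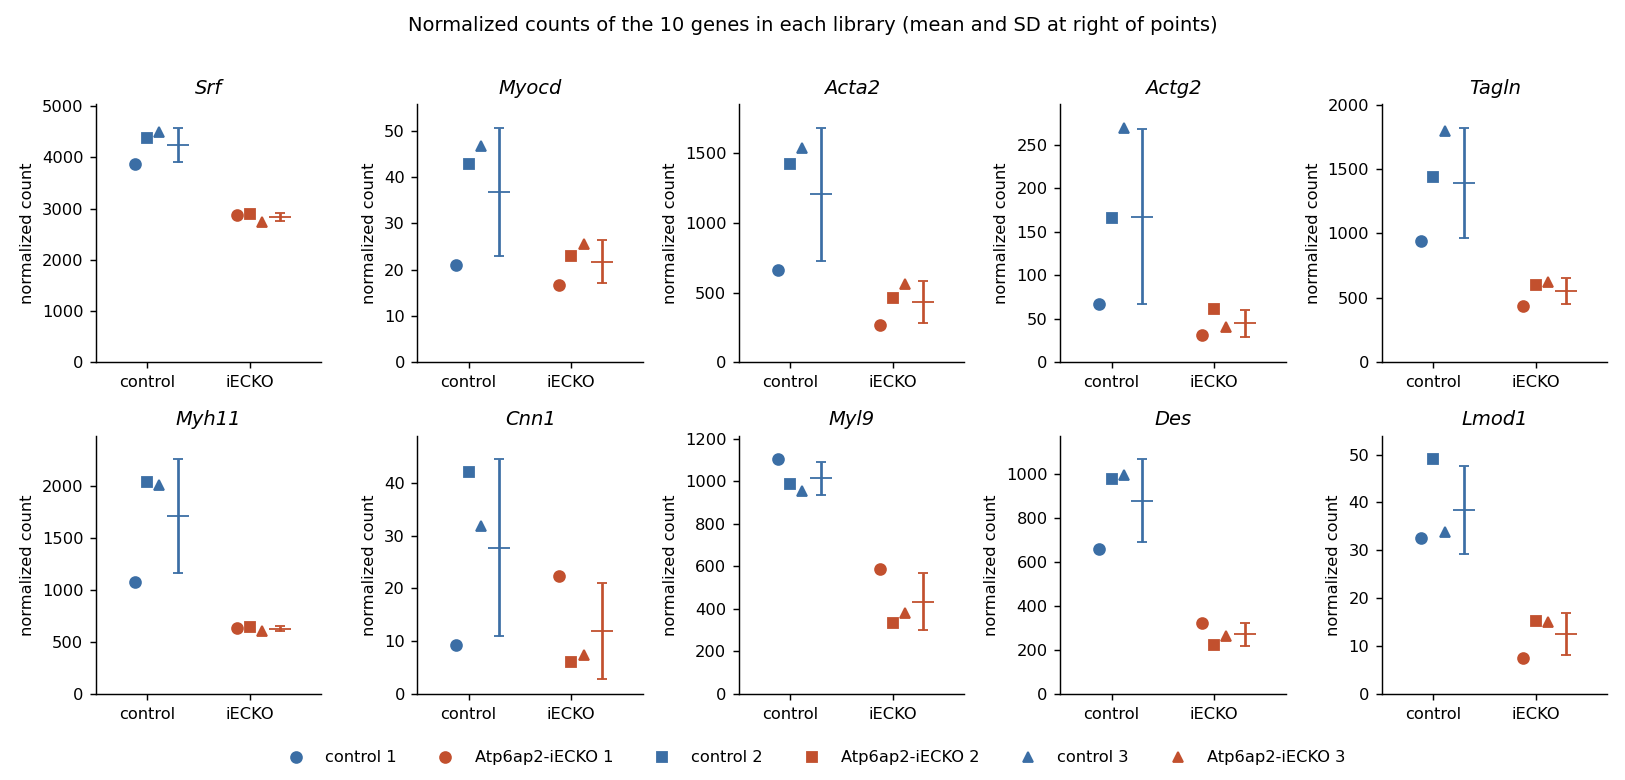
Normalized counts of the 10 genes (y axis, linear, from 0) in each library, with the mean and SD of 3 libraries beside the points of each genotype. The genotypes are separate for 8 genes and overlap for *Myocd* and *Cnn1*, and control replicate 1 (blue circle) is the lowest control for 9 of the 10 genes, *Myl9* being the other.

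*Srf* had the smallest fold change of the group and the smallest standard error. It lies on the minus strand of chromosome 17 of GRCm38, at chr17:46548329-46556175. Its normalized counts were 3865, 4380 and 4486 in control replicates 1 to 3 and 2870, 2888 and 2748 in *Atp6ap2* iECKO replicates 1 to 3. All *Atp6ap2* iECKO values therefore lay within a narrow band below the lowest control. The mean fell from 4244 ± 332 to 2835 ± 76.1 (SD, n = 3 each), to 66.8% of control, with a log2 fold change of -0.58 (standard error 0.083, limma adjusted *P* = 0.0108).

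*Myocd* encodes myocardin, the SRF coactivator restricted to smooth and cardiac muscle, and lies at chr11:65176561-65269989 on the minus strand. It was detected near the lower limit, with normalized counts of 21.0, 42.7 and 46.6 in controls and 16.6, 23.0 and 25.7 in *Atp6ap2* iECKO iLECs. Control replicate 1 fell among the *Atp6ap2* iECKO values, so the genotypes overlapped. Its log2 fold change of -0.68 (standard error 0.41) did not pass the threshold (limma adjusted *P* = 0.372).

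Neither smooth muscle actin passed the threshold, although the genotypes did not overlap for either. *Acta2*, which encodes smooth muscle α-actin, lies at chr19:34241090-34255590 on the minus strand. The gene's GENCODE start is 217 bases upstream of the RefSeq start, so that both boxes printed for *Acta2* precede the RefSeq start but lie within the GENCODE gene, in its first exon. It had 658.8, 1420 and 1535 normalized counts in controls and 268.9, 462.9 and 561.8 in *Atp6ap2* iECKO iLECs. Control replicate 1 had a log2 ratio of -1.16 to the mean of the other controls, yet was still above every *Atp6ap2* iECKO library. The mean was 35.8% of control, and the log2 fold change of -1.45 (standard error 0.37) missed the threshold narrowly (limma adjusted *P* = 0.0504).

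*Actg2*, the γ-actin of visceral smooth muscle, lies at chr6:83512905-83536265 on the minus strand. Its values were 67.5, 165.7 and 269.1 in controls and 31.6, 61.5 and 41.1 in *Atp6ap2* iECKO iLECs. The genotypes did not overlap, but the lowest control and the highest *Atp6ap2* iECKO library were close. At -1.72, the log2 fold change was the lowest of the 10 (standard error 0.50, limma adjusted *P* = 0.0756). Actin genes are similar in their coding sequence. How reads were divided among *Acta2*, *Actg2* and the other actins therefore depends on the authors' quantification. These values are uncertain to that extent.

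Among the actin-associated proteins, *Tagln* was called lower and *Cnn1* was not. *Tagln* encodes transgelin (SM22α), an actin-crosslinking protein of smooth muscle, and lies at chr9:45929619-45936058 on the minus strand. It had 945.3, 1436 and 1796 normalized counts in controls and 439.4, 602.3 and 623.7 in *Atp6ap2* iECKO iLECs. The genotypes were separate, and the mean fell to 39.9% of control with a log2 fold change of -1.29 (standard error 0.24, limma adjusted *P* = 0.0208). Exons of *Tagln* overlap those of *Pcsk7* on the opposite strand, and the library kit does not keep strand. *Pcsk7* itself had a log2 fold change of 0.07.

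*Cnn1*, at chr9:22099216-22109630 on the plus strand, encodes calponin, which binds actin and restrains the myosin ATPase. Its normalized counts were 9.30, 42.0 and 31.8 in controls and 22.3, 6.01 and 7.42 in *Atp6ap2* iECKO iLECs. Control replicate 1 and *Atp6ap2* iECKO replicate 1 crossed over, with the control among the low values and the *Atp6ap2* iECKO library among the high ones. This gave a log2 fold change of -1.13 (standard error 0.69, limma adjusted *P* = 0.374). At the smallest step of each library, the value of control replicate 1 corresponded to 4.04 steps and those of *Atp6ap2* iECKO replicates 2 and 3 to 3.98 and 3.99, so a difference in *Cnn1* was hard to detect at this depth.

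Both myosin genes fell. *Myh11* encodes the smooth muscle myosin heavy chain, the most restricted marker of differentiated smooth muscle in the group, and lies at chr16:14194535-14291372 on the minus strand. It had 1076, 2039 and 2008 normalized counts in controls and 638.6, 640.9 and 604.5 in *Atp6ap2* iECKO iLECs. The *Atp6ap2* iECKO libraries hardly differed from each other, and the mean fell from 1708 ± 548 to 628 ± 20.4 (SD, n = 3 each). That is a log2 fold change of -1.38 (standard error 0.23, limma adjusted *P* = 0.0152).

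*Myl9*, which encodes a regulatory light chain of smooth muscle and nonmuscle myosin, lies at chr2:156775420-156781658 on the plus strand. Its values were 1104, 986.2 and 953.2 in controls and 587.1, 331.5 and 382.9 in *Atp6ap2* iECKO iLECs. It was the only gene of the group for which control replicate 1 was the highest control. The mean fell to 42.8% of control, with a log2 fold change of -1.26 (standard error 0.20, limma adjusted *P* = 0.0138).

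*Des* had the lowest adjusted *P* value of the group. It encodes desmin, the intermediate filament protein of muscle, which pericytes also contain, and it lies at chr1:75360329-75368579 on the plus strand. Its normalized counts were 661.1, 977.2 and 997.6 in controls and 323.2, 222.7 and 265.5 in *Atp6ap2* iECKO iLECs. Even the lowest control was well above the highest *Atp6ap2* iECKO library, and the mean fell from 879 ± 189 to 270 ± 50.4 (SD, n = 3 each), to 30.8% of control. The log2 fold change was -1.69 (standard error 0.20, limma adjusted *P* = 0.00831).

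*Lmod1* encodes leiomodin, which nucleates actin filaments in smooth muscle, and lies at chr1:135324807-135368065 on the plus strand. It had 32.5, 49.0 and 33.7 normalized counts in controls and 7.41, 15.2 and 15.0 in *Atp6ap2* iECKO iLECs. The genotypes did not overlap, at values close to the lower limit of detection. The log2 fold change was -1.58 (standard error 0.41) with a limma adjusted *P* of 0.0567, just above the threshold.

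**Figure D2:**
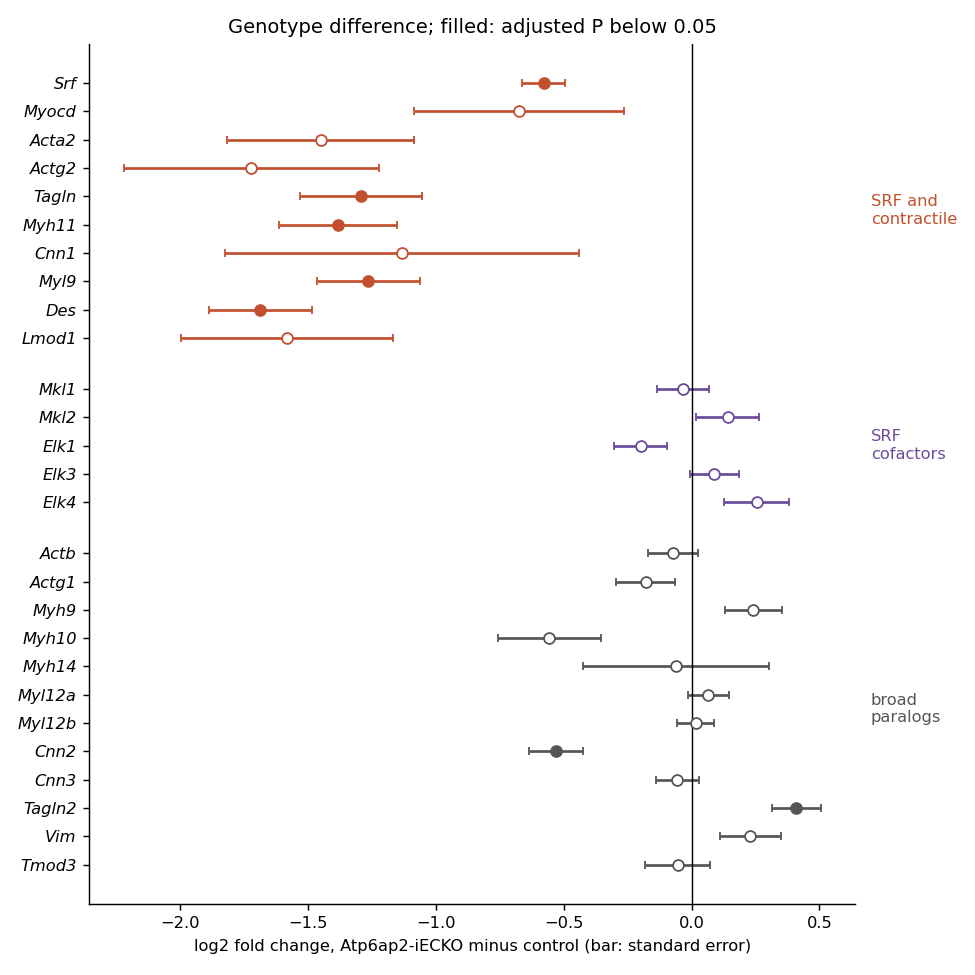
Log2 fold change (x axis, *Atp6ap2* iECKO minus control) of the 10 genes, 5 SRF cofactors and 12 broadly expressed paralogs, with the standard error as a bar and filled points for an adjusted *P* value below 0.05. The 10 genes lie between -1.72 and -0.58, the cofactors between -0.20 and 0.25, and the paralogs on both sides of 0.

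Per kilobase of exon, *Srf* was the most abundant of the 10 in controls, at 1467 ± 115 normalized counts per kilobase (SD, n = 3). *Myl9* (873), *Tagln* (700) and *Acta2* (549) followed, each overlapping its neighbour in this order across libraries. *Des* (234), *Myh11* (225) and *Actg2* (108) came next, again overlapping their neighbours. *Cnn1* (10.1), *Lmod1* (9.73) and *Myocd* (5.73) were far lower. Only the steps from *Srf* to *Myl9*, from *Acta2* to *Des*, from *Actg2* to *Cnn1* and from *Lmod1* to *Myocd* were wider than the ranges of the libraries. Relative to *Pecam1* per kilobase, the mean of *Srf* was 17.5% for controls and 10.7% for *Atp6ap2* iECKO iLECs, that of *Acta2* 6.64% and 2.15%, and that of *Myh11* 2.71% and 0.903%.

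The fall of each *Atp6ap2* iECKO library against the mean of the 3 controls was of like size when taken as the median of the 10 genes, at -1.39, -1.27 and -1.34 for replicates 1, 2 and 3 on the log2 scale. Individual genes were less even. *Srf* (-0.56, -0.55 and -0.62) and *Myh11* (-1.36, -1.35 and -1.44) hardly varied between libraries. *Atp6ap2* iECKO replicate 1 had the deepest fall for *Acta2* (-2.06, against -1.28 and -1.0 in replicates 2 and 3) and for *Lmod1* (-2.20, against -1.26 and -1.28). The same library had the shallowest fall for *Myl9* (-0.79, against -1.61 and -1.40) and for *Des* (-1.42, against -1.95 and -1.70). Across the group it was the lowest *Atp6ap2* iECKO library for 5 genes (*Myocd*, *Acta2*, *Actg2*, *Tagln* and *Lmod1*) and the highest for 3 (*Cnn1*, *Myl9* and *Des*). It was also the library with the most *Atp6ap2*, which was lower than the control mean by -0.57 there and by -1.43 and -1.66 in replicates 2 and 3.

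**Figure D3:**
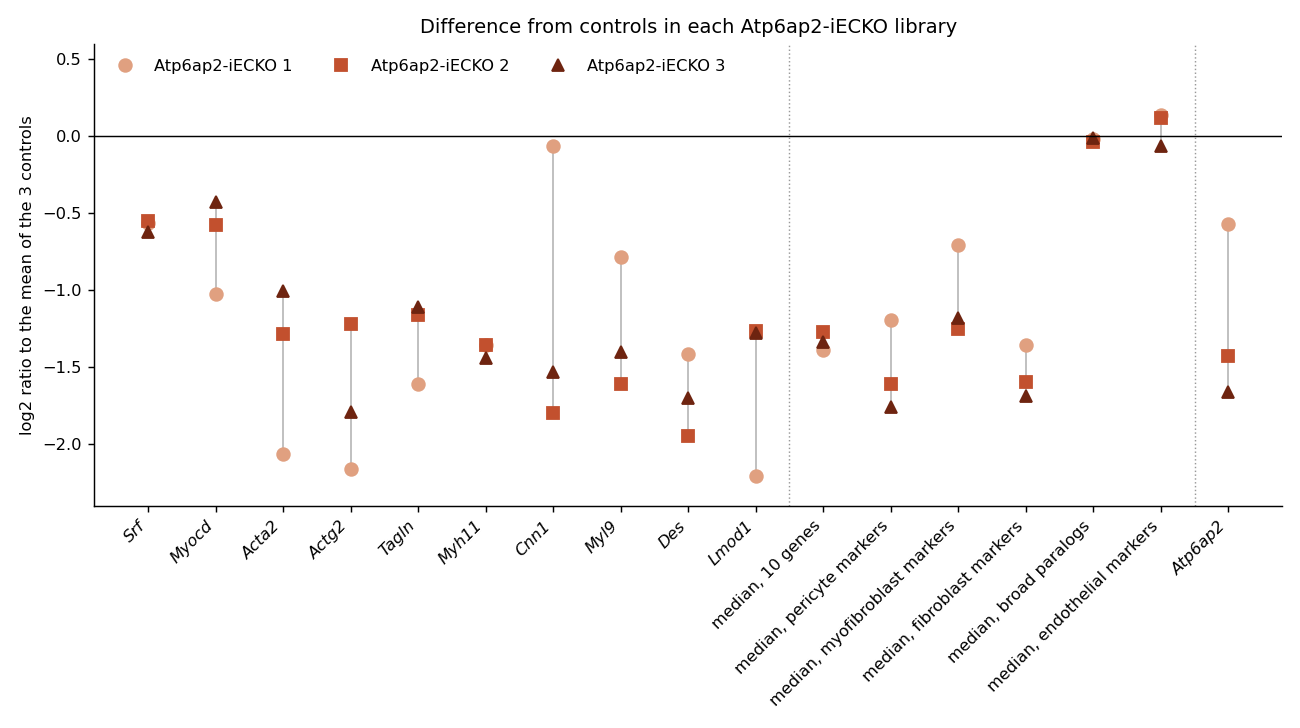
Log2 ratio of each *Atp6ap2* iECKO library to the mean of the 3 controls (y axis) for the 10 genes, for the medians of gene lists and for *Atp6ap2*; grey lines span the 3 libraries. Replicate 1 (pale circle) has the smallest difference for *Atp6ap2* and for the pericyte, myofibroblast and fibroblast medians. Among the 10 genes it has the smallest difference for *Cnn1*, *Myl9* and *Des* and the deepest fall for *Myocd*, *Acta2*, *Actg2*, *Tagln* and *Lmod1*.

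The contractile genes were also set against *Srf* itself within each library. Relative to *Srf*, the log2 difference between genotypes was -1.11 for *Des*, -1.0 for *Lmod1*, -0.80 for *Myh11*, -0.71 for *Tagln* and -0.69 for *Myl9*, and for these 5 genes the genotypes did not overlap. Each reached the smallest two-sided *P* value of the exact permutation test that 3 libraries against 3 allow, 0.1, or 0.18 adjusted over the 9 genes. *Acta2* (-0.87) and *Actg2* (-1.14) overlapped between genotypes on this scale (exact permutation *P* = 0.2, adjusted 0.257). *Myocd* differed from *Srf* by -0.10 and *Cnn1* by -0.55, both with overlap. Such a design cannot pass 0.05, and the share of all genes tested without overlap relative to *Srf* was not counted.

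Smooth muscle genes were next compared with the paralogs that other cells use, as shares of the family per kilobase of exon. Smooth muscle actins made up 0.851%, 1.77% and 2.13% of *Acta2*, *Actg2*, *Actb* and *Actg1* together in control replicates 1 to 3, and 0.370%, 0.695% and 0.773% in *Atp6ap2* iECKO replicates 1 to 3. *Myl9* made up 12.4%, 11.9% and 10.9% of itself and the nonmuscle light chains *Myl12a* and *Myl12b* in controls, and 6.93%, 4.11% and 4.57% in *Atp6ap2* iECKO iLECs. The smooth muscle gene was thus a minor part of its family in both genotypes, and a smaller one in *Atp6ap2* iECKO iLECs. The share of *Myh11* among the class of heavy chains with *Myh9*, *Myh10* and *Myh14* was 3.90% to 7.15% in controls and 2.03% to 2.36% in *Atp6ap2* iECKO iLECs. For *Tagln* against *Tagln2* the shares were 6.09% to 12.99% and 2.39% to 3.44%, and for *Des* against *Vim* they were 1.08% to 1.71% and 0.303% to 0.462%. The genotypes were separate for 5 of the 6 families, each with the smallest possible exact permutation *P* of 0.1 (adjusted over 6 families, 0.12). The exception was *Cnn1* among the calponins (exact permutation *P* = 0.2). These shares use the values of the smooth muscle genes given above again. How often shares of other gene families would separate the genotypes was not counted.

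**Figure D4:**
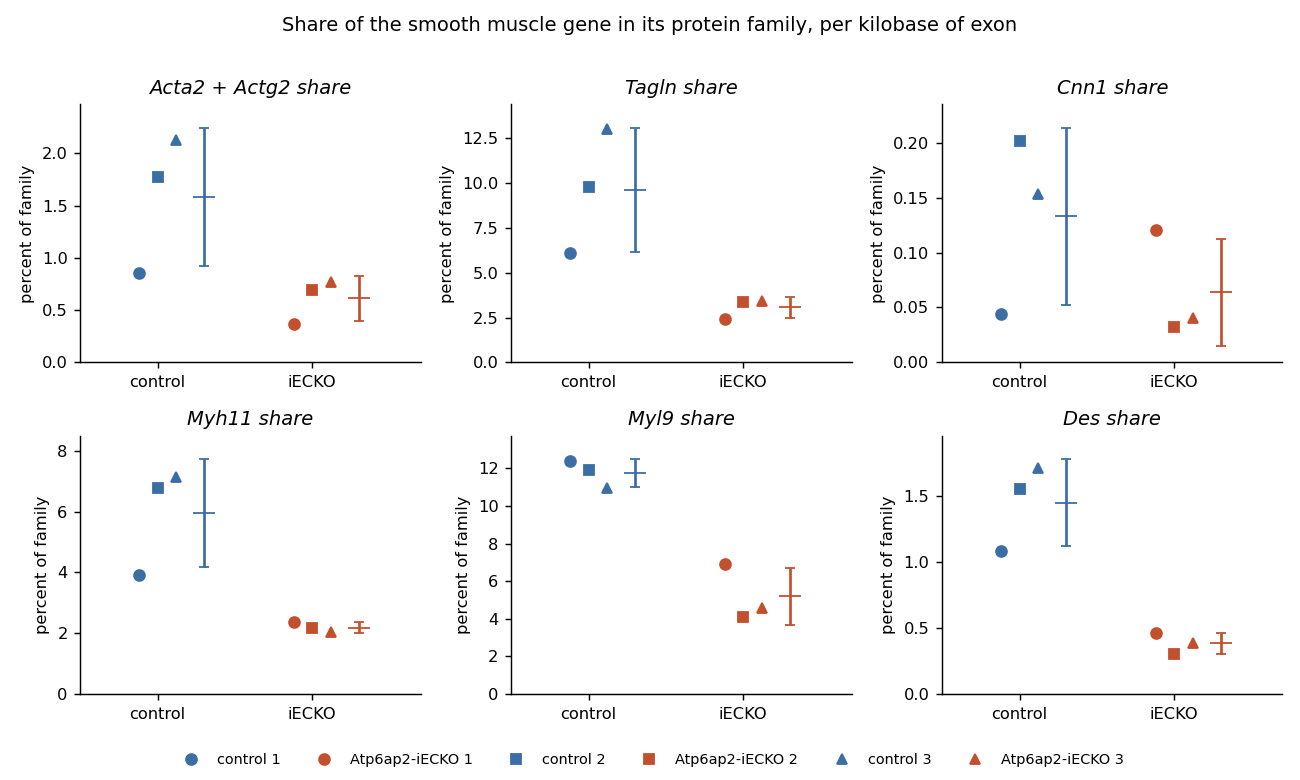
Share of the smooth muscle gene or genes in its protein family (y axis, percent per kilobase of exon, from 0) in each library, with mean and SD of 3 libraries. In every family except that of *Cnn1*, all 3 *Atp6ap2* iECKO libraries lie below all 3 controls.

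Of the 12 broadly expressed paralogs, all tested, 1 fell and 1 rose, with a median log2 fold change of -0.06. *Cnn2*, a calponin found outside muscle, fell by 0.53 on the log2 scale (limma adjusted *P* = 0.0260), and *Tagln2* rose by 0.41 (limma adjusted *P* = 0.0404). The cytoplasmic actins *Actb* and *Actg1* had log2 fold changes of -0.07 and -0.18, the nonmuscle myosin *Myh9* of 0.24, the light chain *Myl12a* of 0.07, *Cnn3* of -0.06 and the intermediate filament gene *Vim* of 0.23, none past the threshold.

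The genes of the other SRF partners did not pass the test. Of 5 cofactor genes tested with limma, 0 passed the threshold in either direction and 0 had an unadjusted *P* below 0.05, and their summed normalized counts were 21599 to 23059 in controls and 21715 to 26014 in *Atp6ap2* iECKO iLECs. The log2 fold changes of *Mkl1* and *Mkl2*, which encode the actin-sensing coactivators, were -0.04 (limma adjusted *P* = 0.875) and 0.14 (limma adjusted *P* = 0.548). Those of the ternary complex factors *Elk1*, *Elk3* and *Elk4* were -0.20, 0.09 and 0.25. Among 10 immediate early genes that SRF controls, 1 fell and 0 rose, with a median of -0.27, and 8 had log2 fold changes below 0. Without adjustment, 4 of the 10 had a limma *P* value below 0.05, against 23.9% of all genes tested. In 3 of the 10, every *Atp6ap2* iECKO library was below every control library, against 15.0% of all genes tested. *Fosb*, a subunit of the AP-1 factor, was the one that fell past the threshold, by 0.61 on the log2 scale (limma adjusted *P* = 0.0321). The lowest log2 fold change of this list was that of *Cyr61*, at -0.91, which did not pass (limma adjusted *P* = 0.0587).

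Of 30 other smooth muscle contractile and cytoskeletal genes, 29 were tested, 8 fell and 0 rose, with a median log2 fold change of -0.37. *Fhl1*, a LIM-domain protein of muscle, had a log2 fold change of -1.23 (limma adjusted *P* = 0.00848). *Prkg1*, the cGMP-dependent kinase through which nitric oxide relaxes smooth muscle, had -0.81 (limma adjusted *P* = 0.0109). *Tpm2*, a tropomyosin, had -1.39 (limma adjusted *P* = 0.0142). The junctophilin gene *Jph2*, which couples membrane and internal calcium stores, and *Nexn*, an actin-binding gene, had -1.63 and -1.20. *Tpm1*, *Mylk* and *Cacna1c* fell as well, by 0.37, 0.55 and 0.79 on the log2 scale. The list includes genes with broad expression, and 21 of the 29 did not pass.

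Most pericyte, alveolar myofibroblast and fibroblast markers were lower as well. Of 13 pericyte markers, 11 fell and 0 rose, with a median log2 fold change of -1.53, and their summed normalized counts were 33432 to 47241 in controls and 12528 to 17259 in *Atp6ap2* iECKO iLECs. *Rgs5*, a pericyte regulator of G-protein signalling, had -1.94 (limma adjusted *P* = 0.00562), and the defining receptor gene *Pdgfrb* and the proteoglycan gene *Cspg4* had -1.54 and -1.52. Of 10 alveolar myofibroblast markers, 6 fell and 0 rose (median -1.11, summed 13796 to 18439 in controls and 8615 to 9559 in *Atp6ap2* iECKO iLECs). Among those that fell were *Egfem1* at -1.45 and the receptor gene *Pdgfra*, which is not restricted to these cells, at -1.35. Of 14 tested fibroblast markers, 10 fell and 0 rose (median -1.53, summed 85045 to 131585 and 29892 to 42410), with *Col3a1* at -1.56. In the same list the fibroblast gene *Pi16* went the other way, with a log2 fold change of 1.12 that did not pass (unadjusted *P* = 0.0115, limma adjusted *P* = 0.0902) and no overlap, and *Mfap5* had 0.55. The part of the perivascular and stromal cells in the difference of the 10 genes was not tested.

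The order of the libraries varied within and between the lists. *Atp6ap2* iECKO replicate 1 was the highest *Atp6ap2* iECKO library for 10 of 13 pericyte markers and 13 of 14 fibroblast markers. Among the 10 genes it was the highest for 3, *Cnn1*, *Myl9* and *Des*, and the lowest for 5, and among the 29 other smooth muscle genes tested it was the highest for 15 and the lowest for 9. Control replicate 1 was the lowest control for all 13 pericyte markers, 11 of 14 fibroblast markers and 9 of the 10 genes.

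Each gene of the group was also set against the mean log2 value of the 13 pericyte markers in the same library. All 13 markers had log2 fold changes below 0 (median -1.53), so an unchanged gene would be higher in *Atp6ap2* iECKO iLECs on that scale. *Srf*, whose own log2 fold change was -0.58, was higher by 0.94 without overlap (exact permutation *P* = 0.1, the smallest possible). *Srf* thus fell less than the mean of these markers. The other 9 genes overlapped between genotypes on that scale, with differences from -0.20 for *Actg2* to 0.85 for *Myocd*. *Acta2* differed by 0.07 (exact permutation *P* = 0.9), *Myh11* by 0.14 (exact permutation *P* = 0.5) and *Des* by -0.17 (exact permutation *P* = 0.3). With 3 libraries against 3 these values do not show that the genes moved to the same extent. The *P* values on that scale were not adjusted for the number of genes. The share of all genes tested without overlap relative to the pericyte markers was not counted.

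Few markers of other cell types passed the test. Of 16 endothelial markers, 1 fell, the angiopoietin receptor gene *Tek* at -0.53 (limma adjusted *P* = 0.0292), and the median was 0.05 (summed 366661 to 476617 in controls and 385771 to 447573 in *Atp6ap2* iECKO iLECs). Striated and cardiac muscle genes differed widely in level. Of 15 such genes 8 were tested with limma, 0 passed in either direction and 1, *Ryr2*, had an unadjusted *P* below 0.05, with summed values of 897 to 1454 in controls and 1365 to 1525 in *Atp6ap2* iECKO iLECs and a median of 0.65. *Ryr2*, a calcium release channel, was at 590 to 1233 normalized counts, *Myh7* at 105 to 300.2 and *Myl4* at 47.9 to 145.0, above *Lmod1* and *Myocd*. *Myl2* was listed at 0 in all 6 libraries, *Myh6* was at 0 to 34.9, and *Tnnt2* at 8.87 to 24.0. Of 14 epithelial markers, 1 rose and 0 fell: the club cell gene *Scgb1a1*, by 1.75 (limma adjusted *P* = 0.0408), with a list median of -0.12 (summed 28049 to 76097 and 34942 to 41801). *Epcam* had -0.23. Of 12 leukocyte markers, 0 passed in limma and 0 had an unadjusted *P* below 0.05 (median 0.36, summed 7157 to 13172 and 6004 to 18133), with *Ptprc* at 0.36. Of 6 mesothelial markers 2 were tested with limma, of which 0 passed and 1 (*Upk1b*) had an unadjusted *P* below 0.05.

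**Figure D5:**
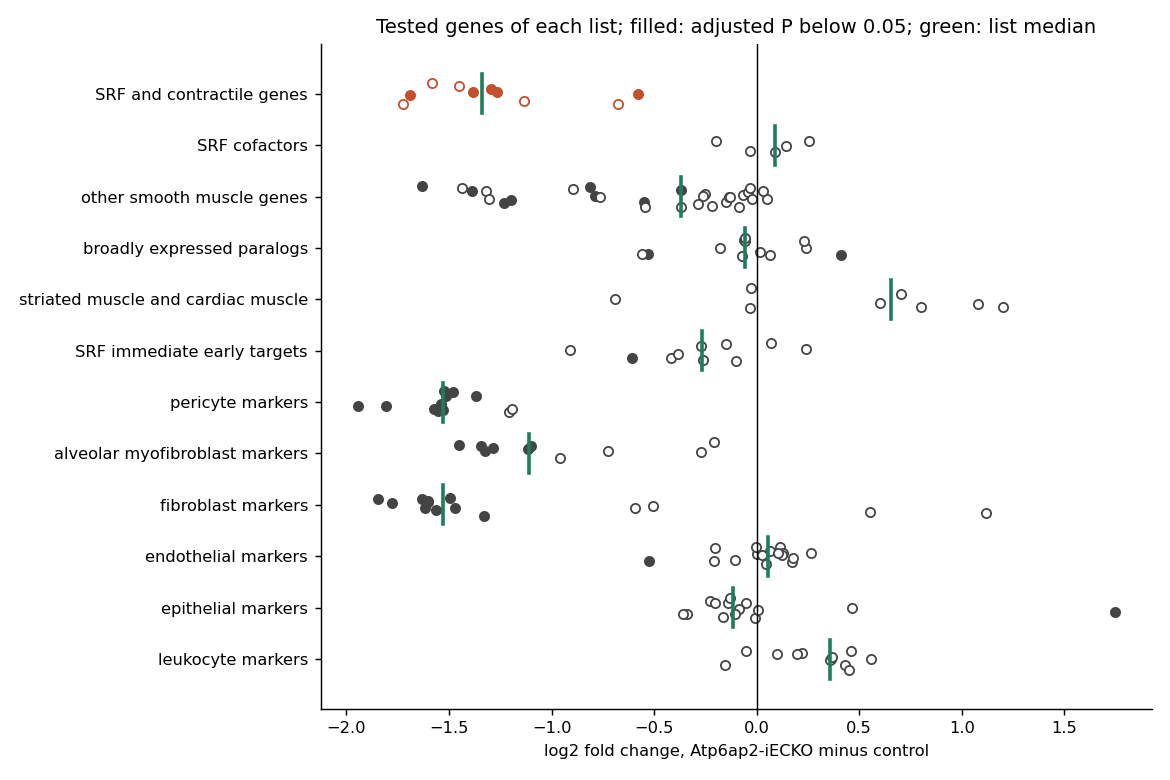
Log2 fold change (x axis, *Atp6ap2* iECKO minus control) of each tested gene by list, with filled points for an adjusted *P* value below 0.05 and a green bar at the list's median. The median of the 10 genes (red, -1.34) lies between those of the pericyte (-1.53) and fibroblast (-1.53) markers and that of the alveolar myofibroblast markers (-1.11). The mesothelial list, with 2 genes tested, is not drawn. *Srf* (-0.58) and *Myocd* (-0.68) differed least among the 10, and the endothelial markers are centred at 0.05.

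Across the 6 libraries, the mean standardised log2 profile of the 10 genes was followed most closely by *Myh11* (Pearson's r = 0.996), *Srf* (0.980), *Tagln* (0.977) and *Des* (0.965) and least by *Myl9* (0.808) and *Cnn1* (0.732). Each of these genes is itself part of that profile. Outside the lists, the 5 genes with the highest r were *Wnt2* (0.999), *Afap1* (0.998), *Hoxa5* (0.998), *Mark1* (0.997) and *Dzip1l* (0.996), a description over libraries that share the difference between genotypes. The values of *Wnt2*, a secreted signalling protein of lung mesenchyme, were 322.4, 663.5 and 639.2 in control replicates 1 to 3 and 153.2, 155.3 and 169.3 in *Atp6ap2* iECKO replicates 1 to 3. Like *Myh11*, it was lower in control replicate 1 than in the other controls and nearly even among *Atp6ap2* iECKO libraries.

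The number of genes called in the group depended on which libraries were fitted. With the presence of *Xist* as a covariate, 6 of 10 genes were called lower, *Actg2* in addition to the 5 named above. Among the 4 libraries with high *Xist*, 2 per genotype, all 9 genes tested had log2 fold changes below 0. Of these 9, 8 had an unadjusted limma *P* below 0.05, but 0 passed after adjustment (lowest limma adjusted *P* 0.121). Across the 14094 genes tested in this fit, 0 passed and 2196 had an unadjusted limma *P* below 0.05. *Des* was called with each of the 6 libraries left out in turn, *Srf* in 5 of these fits, *Myl9* in 4, *Myh11* in 3 and *Tagln* in 2. Without *Atp6ap2* iECKO replicate 3, *Des* alone passed. Without control replicate 3, *Srf* and *Des* passed, and without *Atp6ap2* iECKO replicate 2, *Srf*, *Myl9* and *Des* did. Without control replicate 1, 7 genes passed, with *Acta2* and *Actg2* added. All 10 were then free of overlap, but with fewer libraries so were 21.6% of all genes tested, in place of 15.0%.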

How the data were processed

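RNA-Seq libraries of 3 control and 3 *Atp6ap2* iECKO iLEC samples were prepared by the authors with an unstranded TruSeq RNA v2 kit, sequenced on a NextSeq instrument, aligned to mm10 and quantified with BaseSpace tools. The authors deposited 1 table of 24972 symbols and 6 libraries, whose unit is a normalized signal. The labels call the values raw counts, but 0 of the values above 0 were whole within 1e-06 and the median ratio to the geometric mean was 1.0036 in all 6, so no count test was used and reads were not recovered. The number of reads is unknown, and precision rests on the SD and standard error of 3 libraries each. Nothing in the labels says that samples are single animals, so *P* values measure only the spread between samples.

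Values were analysed as log2(value + 1), which understates changes of low genes. limma 3.58.1 (R 4.3.3), with its mean-variance trend and without covariates, was fitted to the 14456 genes that reached 10 in at least 3 libraries. Benjamini-Hochberg adjustment covered all of them, with a threshold of 0.05, and the fit was tested on simulated data. Single quantities were compared with two-sided exact permutation tests. The comparisons with *Srf* and with pericyte markers and the smallest step per library were added after values were seen. Positions and exon lengths are from GENCODE M21 (GRCm38), in which 24490 symbols matched. Named genes are the 10 genes, SRF cofactors, *Atp6ap2*, the gene with the lowest adjusted *P* in each direction per list (5 for other smooth muscle genes), defining markers, broad paralogs and the 5 genes most correlated with the group. The 3 further smooth muscle genes past the threshold, *Pcsk7*, *Xist*, *Myl2*, *Myl4*, *Myh7*, *Ryr2*, *Pi16*, *Mfap5*, *Upk1b* and *Cyr61* were named after their values were seen. The 10 genes and all lists were chosen with earlier results of these data known. Alternatives were other scalings, filters, pseudocounts and variance models, a stricter threshold, the replicate number as a block, each library left out and *Xist*. Whether the replicate numbers pair the samples is not known, and the main fit did not pair them. Figures were drawn with matplotlib 3.10.9.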

Additional observations from a re-analysis of the deposited data

How the results depend on the processing

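All log2 fold changes of the 10 genes stayed below 0 under every alternative in which they were tested. The 1193 genes called became 767 with the *Xist* covariate, 304 without the mean-variance trend, 90 at an adjusted *P* below 0.01, 0 among high-*Xist* libraries (limma) and 206 to 983 with 1 library left out, lowest without *Atp6ap2* iECKO replicate 3 (206), 2 (250) or control replicate 3 (270). The 5 of the 10 genes called became 1 (*Des*) without the trend and 1 (*Des*) at 0.01, 0 of 9 among high-*Xist* libraries and 1 to 7 with 1 library left out. The cause was not tested, and the last 2 settings also hold fewer libraries. Scalings, filters, pseudocounts and robust variance gave 5 to 7, *Acta2* being the gene most often added. Of the 10 genes, 8 to 10 were without overlap. The counts of 9 (without *Atp6ap2* iECKO replicate 1) and 10 (without control replicate 1) rest on fewer libraries, where 21.3% and 21.6% of all genes were without overlap, against 15.0% with all 6. Of all genes called, 60.3% were lower, against 51.1% with library size scaling, 77.3% without the mean-variance trend, and 44.2% (without control replicate 2) to 87.2% (without *Atp6ap2* iECKO replicate 2) with 1 library left out. With the replicate number as a block, 1508 genes were called, 7 of the 10 genes among them, *Acta2* and *Actg2* being added. Same-numbered libraries deviated together with r = 0.25, 0.11 and 0.08. Control replicates 1 and 2 correlated best with the library of their own number, and control replicate 3 with *Atp6ap2* iECKO replicate 2 (0.10). These values do not settle whether the numbers pair the samples. Depth limits *Cnn1*, *Lmod1* and *Myocd*, whose values amount to 3.96 to 21.0 of the smallest steps of their libraries.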
